A study of Bos taurus with 30 samples.

Results

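The miR-424, miR-503, miR-542 and miR-450 cluster is a group of miRNA genes on the X chromosome. Its members were taken as every row of the deposited miRNA table named miR-424, miR-450, miR-503 or miR-542, with any letter or arm. The rule used names only and no measured value. It found 7 mature miRNAs of 1030 in the table: bta-miR-424-5p, bta-miR-424-3p, bta-miR-450a, bta-miR-450b, bta-miR-503-5p, bta-miR-503-3p and bta-miR-542-5p. All 7 were detected in all 30 libraries and passed the filter on low values, which left 419 miRNAs for testing.

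A miRNA is a short RNA that guides the silencing complex to messenger RNAs, mainly by pairing through its seed, the stretch near its 5′ end. The strands of one hairpin precursor give the 5p and 3p arms, and usually one arm is retained at a much higher level than the other. In mammals the genes of this cluster lie close together and are thought to be processed from a shared primary transcript. Its best known members, miR-424-5p and miR-503-5p, belong to the extended miR-15/16 family through the core of their seed, and they repress cell cycle genes such as cyclin D1 and CDC25A in several differentiating cell types.

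Anterior pituitary small RNA was sequenced in 30 bull calves of the Holstein-Friesian breed, 15 on a high (HI) and 15 on a moderate (MOD) plane of nutrition. The diets ran from 2 to 12 weeks of age, when the calves were killed. HI calves were given 1.5 kg of milk replacer in 10 litres each day with concentrates to appetite, for an expected gain of 1 kg per day. MOD calves were given 0.5 kg in 4 litres with a limited concentrate allowance, for an expected 0.5 kg per day. The study reports that HI calves gained less than expected and MOD calves more, with HI still growing faster. All calves were intact males of one breed, offered hay and water, and were blocked on age, bodyweight, sire and farm, none of which the sample labels give. Each library is 1 calf, named here by its diet and a number that has no other meaning.

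Levels are given in CPM, read counts scaled to the total of miRNA reads in the library and by the authors' TMM factors, which correct for differences in library composition. Libraries held 6650492 to 11086524 reads assigned to miRNAs, with medians of 8672424 in HI and 8856734 in MOD. The count of 3 reads taken as the detection floor was worth 0.266 to 0.419 CPM, and the least abundant member had at least 59 reads in every library. miR-375 and miR-7, which mark endocrine cells of the pituitary, together held 119220 to 212047 CPM. The neural list (miR-124a, miR-124b, miR-9-5p and miR-219-5p) held 10.6 to 110 CPM in sum, most of it miR-9-5p, which averaged 29.2 CPM. A set of 9 libraries, from the calves whose label numbers are highest, stands apart from the other 21. It holds 5 HI and 4 MOD calves, and the 21 hold 10 HI and 11 MOD. That split was known from earlier results in a miRNA outside the cluster, and the labels do not say what the number stands for. Correlations of members and some diet differences are also given within each set or with the set in the model.

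The NCBI RefSeq gene table of assembly ARS-UCD2.0 was matched by name, and all 7 members were found in it. From one side to the other it lists HPRT1, MIR450B, MIR450A-1, MIR450A-2, MIR542, MIR3601, MIR503, MIR424 and PLAC1 in this order on chromosome X. HPRT1 encodes a purine salvage enzyme, and PLAC1 a protein best known from the placenta. The authors counted on ARS-UCD1.2, so no coordinates are given. miR-450a has 2 genes, and it was the sole member with fractional reads, in 7 libraries, as a counter gives where it divides a read between loci. MIR3601, named here for its place inside the interval of MIR542, was at 0 reads in all 30 libraries, and its share of reads in a library can be no more than the floor above.

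The cluster was dominated by one arm of one hairpin. bta-miR-424-5p, the arm of miR-424 that carries the family seed, averaged 1373 ± 466 CPM (SD, n = 30) and made up 62.3 ± 3.35% of the summed CPM of the cluster. bta-miR-450b followed with 514 ± 180 CPM and 23.6 ± 2.86% of the sum, and bta-miR-450a with 153 ± 48.5 CPM and 7.02 ± 0.815%. bta-miR-424-3p, the opposite strand of the leading member, reached 75.04 ± 27.9 CPM, and bta-miR-542-5p 50.9 ± 14.3 CPM. Both arms of miR-503 were low, with 15.7 ± 4.36 CPM for bta-miR-503-3p and 12.7 ± 4.85 CPM for bta-miR-503-5p. Each neighbouring pair in this order differed within libraries by a two-sided paired permutation test of log2(CPM + 1). For the first 5 of the 6 steps p was 2e-05, the smallest the 100000 resamples can give, and for miR-503-3p against miR-503-5p it was 8e-05. The order held in 30 of 30 libraries for 4 steps and in 26 of 30 for miR-424-3p over miR-542-5p and for miR-503-3p over miR-503-5p. How well each sequence was captured by the library kit was not measured, so the order is one of reads.

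The 2 hairpins with both arms in the table differed in which arm had more reads. For miR-424 the 5p arm exceeded the 3p arm in 30 of 30 libraries, with a median ratio of 18.5 and a range of 10.0 to 30.5. For miR-503 the 3p arm was the higher one in most calves: the 5p arm exceeded it in 4 of 30, with a median 5p to 3p ratio of 0.779 and a range of 0.466 to 1.35. The arm of miR-503 that carries the miR-15/16 type seed thus had fewer reads in most calves. As capture of each arm by the kit was not measured, this is a ratio of reads.

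**Figure D1:**
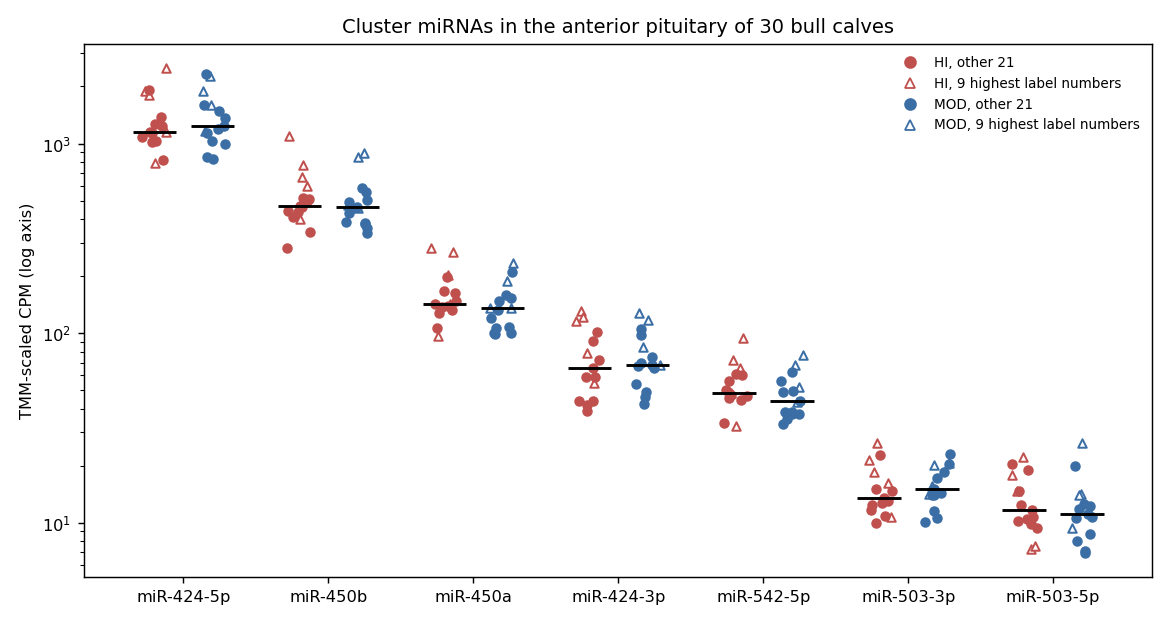
TMM-scaled CPM of the 7 members (log axis) in each of 30 calves, HI in red and MOD in blue, with open triangles for the 9 libraries with the highest calf label numbers and a black bar at each diet's median. Medians of the diets lie close together for every member, while calves of one diet spread from 794 to 2497 CPM for miR-424-5p in HI.

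The first comparison asked whether the plane of nutrition changed these miRNAs. None of the 7 was differentially expressed between HI and MOD at FDR < 0.1 (limma on log2(CPM + 1), Benjamini-Hochberg over all 419 miRNAs), where 3.58% of all tested miRNAs passed. None passed with the added threshold of a 1.5-fold change either, against 0.477% of all tested. None had an unadjusted p under 0.05, where 53 of all 419 did. The quasi-likelihood test of edgeR, its exact test and DESeq2 also called 0 of 7, against 20, 18 and 24 of all 419.

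miR-424-5p ranged from 794 to 2497 CPM in HI calves with a median of 1157, and from 834 to 2334 with a median of 1242 in MOD calves. The ranges of the diets overlapped almost completely. The difference in log2(CPM + 1), HI minus MOD, was -0.06 (SE 0.16, 95% CI -0.39 to 0.27, limma FDR 0.935). Its 3p arm ranged from 38.9 to 130 CPM in HI (median 65.7) and from 42.1 to 127 CPM in MOD (median 68.2), and the log2 difference was -0.06 (SE 0.18, limma FDR 0.949). The interval for the 3p arm, -0.44 to 0.32, was the widest among the members.

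miR-450a had the largest point estimate. It ranged from 96.9 to 283 CPM with a median of 142 in HI, and from 98.7 to 233 CPM with a median of 135 in MOD. The MOD median was exceeded by 11 of 15 HI calves and the MOD maximum by 2, so most of the values overlapped. The log2 difference was 0.19 (SE 0.14, 95% CI -0.10 to 0.49, limma FDR 0.721). miR-542-5p, from the neighbouring gene, ranged from 32.5 to 94.1 CPM in HI (median 48.6) and from 33.2 to 76.3 CPM in MOD (median 44.0). Its MOD median was exceeded by 13 of 15 HI calves, and the log2 difference was 0.15 (SE 0.13, limma FDR 0.734).

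miR-450b ranged from 283 to 1097 CPM in HI (median 466) and from 336 to 888 CPM in MOD (median 462), a log2 difference of 0.05 (SE 0.15, limma FDR 0.949). miR-503-5p ranged from 7.28 to 22.2 CPM in HI (median 11.7) and from 6.95 to 26.4 CPM in MOD (median 11.2), a log2 difference of 0.11 (SE 0.17, limma FDR 0.890). miR-503-3p ranged from 9.91 to 26.4 CPM in HI (median 13.5) and from 10.1 to 23.0 CPM in MOD (median 15.1), a log2 difference of -0.07 (SE 0.13, limma FDR 0.920). None of these 3 separated the diets.

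The median difference over the members was 0.05, against 0.02 over all 419 miRNAs. As folds, the 95% intervals of the 7 members reached from 0.739 at the lowest to 1.4 at the highest, so a 1.5-fold difference in either direction lay outside each member's interval. Estimates near 0 changed sign with the scaling: miR-424-5p and miR-424-3p came out at 0.0023 and 0.0035 with total counts, and miR-450b at -0.051 with the upper quartile, none of them called.

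The calf-to-calf spread was wide. Within diets the SD of log2(CPM + 1) was 0.37 to 0.53 for the members, against a median of 0.25 over the 419 tested miRNAs, and 35 to 81 of the 419 had a larger SD than a given member. Read counting alone would give an SD of 0.014 for miR-424-5p and 0.14 for miR-503-5p. The highest calf exceeded the lowest by 2.66-fold for miR-503-3p, the least variable by this measure, and by 3.88-fold for miR-450b, the most variable. The 6 other miRNAs of the shared seed had within-diet SDs of 0.14 to 0.25. By the highest to lowest fold, miR-15a, miR-15b, miR-16a and miR-16b spread 1.48-fold to 1.78-fold, while miR-195 (2.88-fold) and miR-497 (2.50-fold) reached or neared the range of the members.

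The same calves were high or low for most members. HI replicate 12 held the highest level of 6 of the 7 members, with 2497 CPM of miR-424-5p, 1097 CPM of miR-450b and 283 CPM of miR-450a. MOD replicate 8 was highest for miR-503-5p, with 26.4 CPM, and was among the top 3 for 6 members. At the other end MOD replicate 11 was among the lowest 3 for 5 members and HI replicate 11 for 4. The summed cluster ran from 1303 to 4150 CPM, with 2193 ± 755 CPM in HI (SD, n = 15) and 2197 ± 695 CPM in MOD (SD, n = 15). In bulk tissue, a smaller number of cells of one type and less RNA per cell cannot be told apart.

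All 21 pairs of members were positively correlated over the 30 libraries in log2(CPM + 1). Pearson's r was 0.513 to 0.930 with a median of 0.836, and Spearman's rho 0.511 to 0.907. The two-sided permutation p of Pearson's r was at most 0.00369. Over all 87571 pairs of tested miRNAs the median r was -0.00087, and 2.68% of those pairs reached the lowest r among the members. The strongest pair was miR-542-5p with miR-450a (r = 0.930, rho = 0.877, permutation p = 1e-05 for both, the smallest 100000 resamples can give; r = 0.902 without the 2 libraries farthest from the median). miR-424-5p with miR-503-3p followed at r = 0.917.

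The weakest pair was miR-424-3p with miR-503-5p, with r = 0.513 and rho = 0.511. It fell to r = 0.359 without the 2 farthest libraries, HI replicate 12 and MOD replicate 8, so part of that relation rests on them. Without HI replicate 12 alone it was 0.456. Within HI it was 0.309 and within MOD 0.788. Over the 21 pairs, r was 0.309 to 0.940 within HI, 0.752 to 0.943 within MOD, 0.360 to 0.891 within the 21 libraries with lower label numbers and 0.663 to 0.991 within the other 9. After removing diet and the split by label number from each member, r was 0.488 to 0.924. Without HI replicate 12 it was 0.456 to 0.914. Arms of one hairpin were not the closest pairs: r was 0.774 for the arms of miR-424 and 0.751 for those of miR-503.

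**Figure D2:**
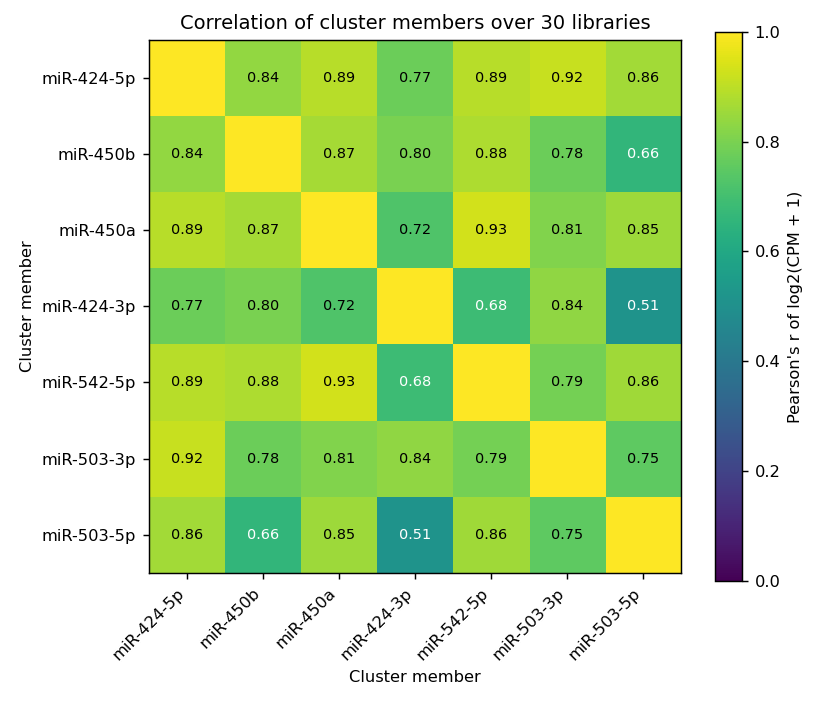
Pearson's r of log2(CPM + 1) between each pair of cluster members over 30 libraries, with r printed in each cell and the diagonal left blank. Every pair is positive, from 0.51 for miR-424-3p with miR-503-5p to 0.93 for miR-542-5p with miR-450a.

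The 5 miRNAs outside the cluster most like it were found by Pearson's r, over 30 libraries, with the mean of the 7 standardized members. They were miR-532 (r = 0.869), miR-362-3p (0.858), miR-188 (0.782), miR-362-5p (0.778) and miR-660 (0.773), of 412 compared. RefSeq places all 5 in another X-linked group, at the locus of CLCN5, a chloride/proton exchanger gene. miR-532 averaged 2101 CPM and miR-660 10001 CPM, so these were not low-count miRNAs. None of the 5 differed between the diets, with limma FDR 0.873 to 0.984. miR-362-3p, miR-362-5p and miR-660 were higher in the 9 libraries than in the 21 (limma FDR 0.0529, 0.0790 and 0.0279). Within the 21 and the 9 libraries, r for miR-532 was 0.833 and 0.947. The 43 tested X-linked miRNAs outside the cluster had a median r of 0.142, against -0.042 over the 412. The 2 least alike were miR-885 (r = -0.773) and miR-204 (r = -0.654). These correlations are descriptions: the libraries were scaled together, and each miRNA was picked for its r.

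**Figure D3:**
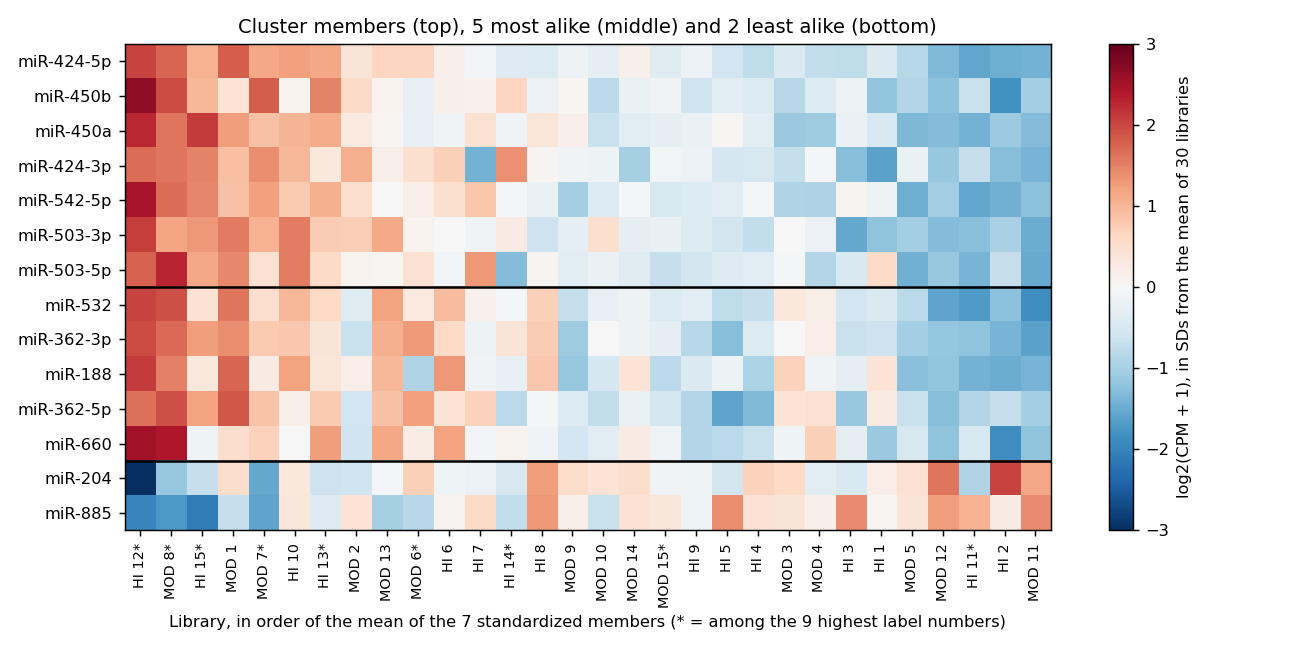
log2(CPM + 1), in SDs from the mean over 30 libraries, of the 7 members (top), the 5 miRNAs most like them (middle) and the 2 least like them (bottom), with libraries ordered by the members' mean and asterisks on the 9 with the highest label numbers. HI replicate 12 and MOD replicate 8 have the highest means of the members and MOD replicate 11 the lowest, and the alike miRNAs follow a similar but not identical order.

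Members were higher in the 9 libraries with the highest calf label numbers than in the other 21. In limma with diet in the model, 5 of 7 passed FDR < 0.1, all of them higher in the 9. Of all 419 tested miRNAs 26.0% passed in either direction, and 11.7% passed as higher in the 9. The median log2 difference was 0.38 over the members and -0.02 over all tested.

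miR-450b was 399 to 1097 CPM (median 665) in the 9 and 283 to 583 CPM (median 443) in the 21, and 6 of the 9 lay above the highest of the 21. Its log2 difference was 0.59 (SE 0.13, limma FDR 0.00186). miR-424-3p was 54.4 to 130 CPM (median 116) against 38.9 to 105 CPM (median 65.2), with 5 of the 9 above the highest of the 21 and a log2 difference of 0.63 (SE 0.17, limma FDR 0.00719). miR-424-5p (0.41, SE 0.16, limma FDR 0.0795), miR-450a (0.38, SE 0.15, limma FDR 0.0665) and miR-542-5p (0.35, SE 0.13, limma FDR 0.0649) rose less and lay closer to the threshold. The arms of miR-503 did not pass, with 0.31 (SE 0.13, limma FDR 0.101) for the 3p and 0.24 (SE 0.18, limma FDR 0.370) for the 5p arm. Ranges of the 9 and the 21 overlapped for every member.

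Within the 9, HI replicate 11 had the lowest level of all 7 members, with 794 CPM of miR-424-5p where the other 8 had 1157 to 2497. miR-450b and miR-424-3p passed in each of 30 fits that left out 1 calf, and the other 3 did not: the number that passed was 2 without HI replicate 12, HI replicate 15, MOD replicate 7 or MOD replicate 8, 3 without HI replicate 13, and 4 to 6 otherwise. With total counts or upper quartile scaling 3 passed, and 2 without a filter on low values. With log2 total reads as a covariate, an alternative added after seeing the data, 6 passed. The 9 libraries had 7926451 to 11086524 reads assigned to miRNAs and the 21 had 6650492 to 9577361.

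Of the marker lists, the endocrine pair moved with this split: miR-375 was higher in the 9 by 0.37 on the log2 scale (limma FDR 0.000463) and miR-7 by 0.25 (limma FDR 0.0817), 2 of 2 markers. Their sum was 159431 to 212047 CPM in the 9 and 119220 to 191519 CPM in the 21. None of the tested red blood cell (3), stromal (5), endothelial (2), striated muscle (1) or neural (1) markers passed for diet or for the split in limma. The red blood cell markers were mixed by diet. HI minus MOD was 0.55 for miR-451 (limma FDR 0.190), 0.46 for miR-144 (limma FDR 0.115) and -0.27 for miR-486 (limma FDR 0.274). The study, with edgeR, reported miR-451 and miR-144 as higher in HI. Sums of the 6 lists correlated with the members' mean at r = -0.33 to 0.35. The part of any of these in the cluster's differences was not tested. The diet difference did not change between the 9 and the 21 for any member at FDR < 0.1, and 0% of all 419 passed that interaction test, with 21 of 419 and 0 of 7 at an unadjusted p under 0.05.

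**Figure D4:**
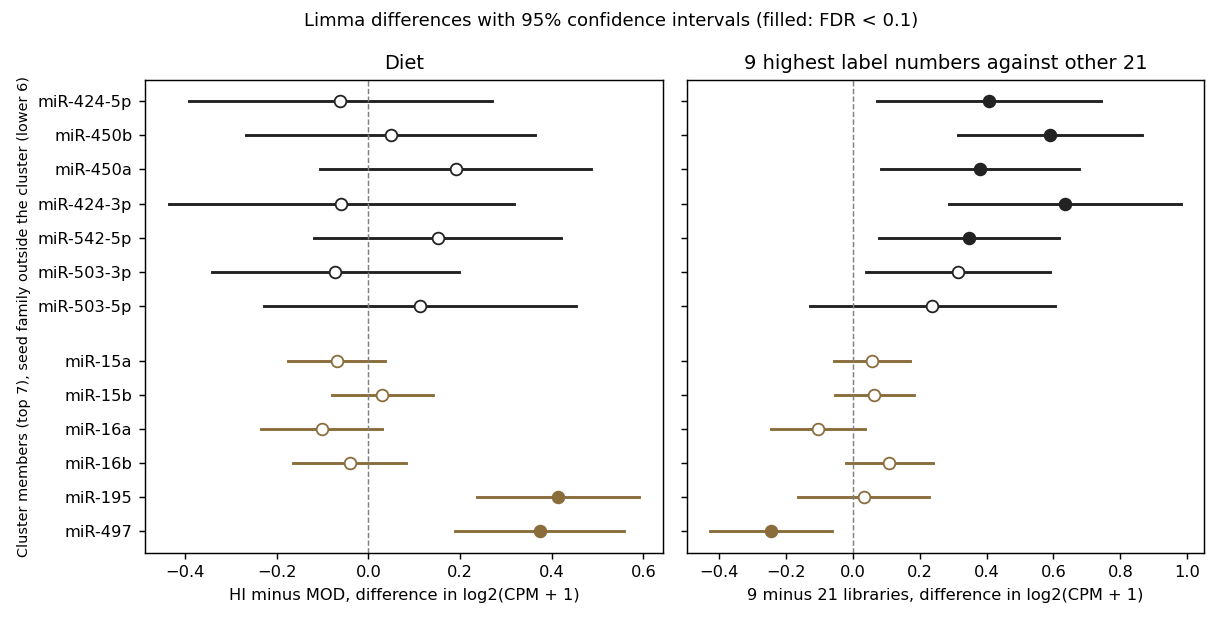
Differences in log2(CPM + 1) with 95% confidence intervals from limma, HI minus MOD on the left and the 9 highest label numbers minus the other 21 on the right, for the 7 members (black) and 6 seed-family miRNAs outside the cluster (brown), filled where FDR < 0.1. No member is filled for diet, 5 are for the split, miR-195 and miR-497 are filled for diet, and miR-497 is filled below 0 for the split.

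Ratios between members cancel the shared rise and fall, and the scaling of a library apart from the pseudocount of 1. All 21 were tested in limma among the 87570 ratios of all miRNA pairs, a step added after seeing the data. By diet 1 of 21 passed FDR < 0.1, where 1.64% of all ratios did: miR-450a over miR-424-5p. In HI, miR-450a stood at 10.2 to 14.9% of miR-424-5p with a median of 12.3%. In MOD it stood at 8.50 to 12.3% with a median of 10.2%. The MOD median was exceeded by all 15 HI calves, and the highest MOD value by 8 of them. The log2 difference was 0.25 (SE 0.07, 95% CI 0.11 to 0.40, limma FDR 0.0930), or 1.19-fold. It was 0.24 within the 21 libraries (exact permutation p = 0.00487) and 0.28 within the 9 (exact permutation p = 0.0476). With the set of 9 in the model it was 0.25 (limma FDR 0.0699). With a pseudocount of 0.1 it was 0.25 and did not pass (limma FDR 0.104). The call was at the edge of the threshold: leaving out 1 calf kept the difference at 0.23 to 0.27, but the FDR was 0.0768 to 0.154 and passed in 10 of 30 fits. Another 3 ratios had an unadjusted p under 0.05 and did not pass: miR-450a over miR-503-3p (log2 difference 0.26, limma FDR 0.148), miR-542-5p over miR-424-5p (0.21, limma FDR 0.210) and miR-542-5p over miR-503-3p (0.22, limma FDR 0.255). Over all ratios 11.6% had an unadjusted limma p under 0.05, against 4 of the 21. Those 4 share members, so they are not separate results. miR-450a over miR-542-5p gave 0.04 (permutation p = 0.497). Between the 9 and the 21 libraries 5 of 21 ratios passed, a share like that of all ratios, of which 23.7% did. The ratio of miR-450b to both arms of miR-503 was higher in the 9, with log2 differences of 0.28 over miR-503-3p and 0.35 over miR-503-5p, and the ratios of miR-542-5p and miR-450a to miR-450b were lower, at -0.24 and -0.21. The fifth was miR-503-3p over miR-424-3p, at -0.32.

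The arm ratio of miR-424 had medians of 18.6 in HI and 18.4 in MOD, a log2 difference of -0.0019 (two-sided permutation p = 0.988, 100000 resamples). For the inverse ratio, 3p over 5p, the limma 95% interval was -0.25 to 0.26. The 5p to 3p ratio of miR-503 was 0.466 to 1.35 in HI (median 0.835) and 0.600 to 1.27 in MOD (median 0.702). The MOD median was exceeded by 13 of 15 HI calves, and the log2 difference of 0.18 did not pass (permutation p = 0.101). Within the 21 libraries it was 0.38 (exact permutation p = 0.000573), where the 5p arm was 73.0 to 135% of the 3p arm in 10 HI and 60 to 86.4% in 11 MOD calves. Within the 9 it was -0.26 (exact permutation p = 0.381), with 46.6 to 84.2% in 5 HI and 66.2 to 127% in 4 MOD calves. Without HI replicate 14, the calf with the lowest ratio, the pooled difference was 0.24 (permutation p = 0.02), and without MOD replicate 8 it was 0.24 (permutation p = 0.0224). The other 28 fits without 1 calf gave 0.14 to 0.21 (permutation p = 0.0774 to 0.189). In limma over all ratios, 0% passed the test of whether the diet difference changed between the sets, this one included (limma FDR 0.893).

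**Figure D5:**
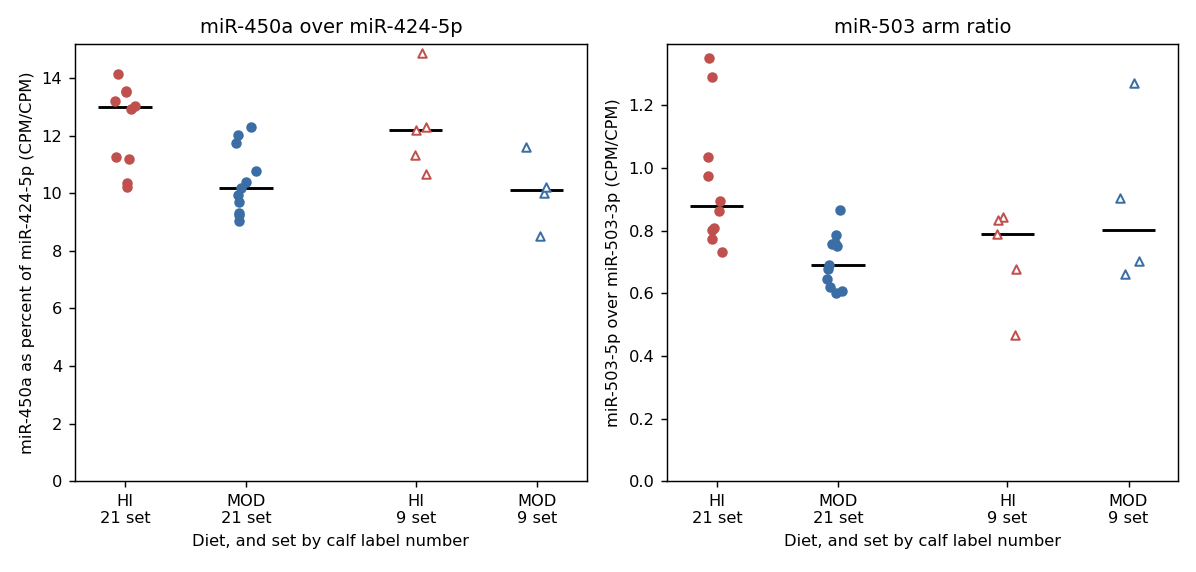
miR-450a as a percent of miR-424-5p (left) and the 5p to 3p ratio of miR-503 (right), computed from CPM, for each calf by diet within the 21 and the 9 libraries, with a bar at each group's median. HI medians lie above MOD in both sets for miR-450a over miR-424-5p, and for miR-503 in the 21 libraries but not in the 9.

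In the wider miR-15/16 family, whose members share the core of the seed, miR-424-5p was a large part. Summed over miR-15a, miR-15b, miR-16a, miR-16b, miR-195, miR-497, miR-424-5p and miR-503-5p, it made up 20.04 ± 5.89% (SD, n = 30) and 11.9 to 33.6%, while miR-503-5p gave 0.187 ± 0.065% and miR-16a with miR-16b 69.3 ± 5.45%. Of the 6 outside the cluster, miR-195 rose in HI by 0.41 (SE 0.09, limma FDR 0.0177) and miR-497 by 0.37 (SE 0.09, limma FDR 0.0256), and the other 4 did not pass. With the set of 9 in the model, miR-195 was at 0.41 and miR-497 at 0.39 (limma FDR 0.00921 for each). The call of miR-497 was lost with upper quartile scaling (0.28, limma FDR 0.141). Between the 9 and the 21 libraries miR-497 was the only one of the 6 past FDR < 0.1, lower in the 9 at -0.24 (limma FDR 0.0570). That call was lost without HI replicate 15, MOD replicate 6 or MOD replicate 15 (limma FDR 0.113 to 0.156). It was also lost with blocks set by inner digits of the label number, not by its size (-0.20, limma FDR 0.135). miR-195 and miR-497 gave 3.26% of the sum in HI and 2.37% in MOD, and miR-424-5p 19.9% and 20.2%. The r of these 6 with the members' mean was -0.33 to 0.15.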

How the data were processed

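Anterior pituitary small RNA libraries of 30 calves (15 HI, 15 MOD) were made with an Illumina small RNA kit. Per the study's methods, adapters were cut with Cutadapt, reads of other short RNA classes were removed, and miRDeep2 with Bowtie counted miRBase miRNAs on ARS-UCD1.2. The authors deposited one table, whose values are a normalized signal, CPM divided by edgeR's TMM factor, and not counts. Whole reads were recovered from the step of each library: at least 94.7% of values up to 300 reads came out whole within 0.02 reads, and the recovery worked in 20 of 20 simulated libraries. Groups were taken from the labels' treatment field. Whether a label number marks anything shared by calves is not given in the sources used here.

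miRNAs were kept by edgeR's filterByExpr by diet (419 of 1030; 840 were above 0). log2(CPM + 1) was fitted in limma 3.58.1 with a trended prior (R 4.3.3), with Benjamini-Hochberg adjustment over all tested, FDR < 0.1 and a fold change of 1.5 as thresholds. On the recovered reads, edgeR 4.0.16's quasi-likelihood test called 20 of 419 miRNAs by diet and limma 15, and DESeq2 1.42.0 called 24. Differences on the log2(CPM + 1) scale understate changes of low miRNAs. Single values used permutation tests in SciPy 1.17.1. Tested on simulated data for HI against MOD with 419 miRNAs, limma called 184 of 200 changed by 1.5-fold in the right direction and 11 unchanged ones. With 200 changed, the FDR threshold admits larger p-values than with the 15 called here. The simulation therefore does not tell how often a change in the members would be called. Alternatives were other tests, scalings, filters, pseudocounts, covariates and leaving out each calf. Named were the members, the miR-15/16 family, the 5 miRNAs most and the 2 least like the cluster, and marker lists. The members and lists were chosen with earlier results of these data known. Confidence intervals cover 95% and read floors cover counting error only. Mature sequences are not shown here.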

Additional observations from a re-analysis of the deposited data

Results flagged for a closer look

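The diet difference in the 5p to 3p ratio of miR-503 had opposite signs in the 9 libraries with the highest label numbers and the other 21. The log2 difference of HI minus MOD was -0.26 in the 9 and 0.38 in the 21, a gap of -0.64. Permuting diet within each set 100000 times gave a two-sided p of 0.00859. The permutation assumes no diet difference in either set, so its p is not for the gap alone. This test was added after seeing the data, 6 ratios were tested this way, and in limma over all 87570 ratios its FDR was 0.893. The cause was not tested.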

How the results depend on the processing

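No paired or blocked analysis by age, bodyweight, sire or farm was possible because the sample labels do not give them. With 0 of 7 members called for diet, every alternative run and each of 30 fits without 1 calf also called 0. For the 9 against the 21 libraries, 5 passed; 3 did with total counts, 3 with the upper quartile and 2 without a filter, and 2 to 6 in fits without 1 calf. The 1 member ratio called for diet became 0 with a pseudocount of 0.1, and 0 to 1 without 1 calf. The miR-424 arm ratio by diet was 0.079 within the 21 libraries and -0.052 to 0.061 without 1 calf. The miR-503 arm ratio by diet was 0.38 within the 21, -0.26 within the 9 and 0.14 to 0.24 without 1 calf. Uncalled values changed sign: with total counts miR-424-3p by diet came to 0.0035 and miR-424-5p to 0.0023, and miR-450b came to -0.051 with the upper quartile and to -0.033 to 0.11 without 1 calf, lowest without HI replicate 12. The 9 against the 21 in miR-195 gave -0.0070 with the upper quartile and -0.018 with blocks by inner label digits. Without 1 calf it gave -0.014 to 0.079. Interactions of diet with the set changed sign in fits without 1 calf, running from -0.040 to 0.32 for miR-424-3p, -0.28 to 0.13 for miR-424-5p, -0.21 to 0.18 for miR-450a, -0.087 to 0.28 for miR-450b and -0.33 to 0.044 for miR-542-5p, and that of miR-450a was 0.0064 with edgeR. The cause of these shifts was not tested. Depth limits miR-503-5p most, with 59 to 250 reads.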
